A study of Homo sapiens with 2 samples.

Results

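The regions described here are places deep inside protein-coding genes that were called as peaks in both of 2 GFI1 chromatin immunoprecipitation sequencing (ChIP-seq) libraries. A peak of the ab21061 list was taken when an sc8558 peak overlapped it by at least 1 bp, when its midpoint lay inside the span of a protein-coding gene, and when that midpoint was more than 10 kb from the nearest end of any protein-coding gene. The rule found 1394 regions, which are 28.5% (95% interval 27.2 to 29.8) of the 4896 ab21061 peaks with an sc8558 overlap, out of 7687 ab21061 peaks in all. The regions were chosen by overlap and position in the same peak lists, so their overlap, position and peak scores are given as a description, with no test. Intervals are exact Clopper-Pearson intervals for shares and exact order-statistic intervals for medians. They cover counting error only.

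Both libraries came from formaldehyde-fixed NB4 cells with no other treatment in the labels, 1 made with the GFI1 antibody ab21061 and 1 with the GFI1 antibody sc8558. NB4 is a line from acute promyelocytic leukemia with a PML-RARA fusion, which both libraries therefore share, and there were no replicates, nor do the labels say whether the cultures were separate. The written immunoprecipitation protocol names a PML/RARα antibody and 1 sample title reads GFI2, whereas the antibody labels of both samples read GFI1 and were followed. The sequencing depth is unknown, and no input library was analysed here.

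GFI1 is a zinc-finger protein of blood cells that binds DNA at sites with an AATC core and recruits corepressors, among them the histone demethylase LSD1, CoREST and histone deacetylases. In myeloid cells it restrains genes of the monocyte programme and supports granulocyte development. Enhancers and silencers that act over a distance often lie in the introns of long genes, far from the ends of the gene that hosts them, and some long genes also have further transcript starts far inside their span.

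The sequences that these regions cover could be read only where RefSeq (GRCh38.p14) lists a transcript start inside a region, since no genome sequence was used here. In 37 of the regions the whole stretch from 250 bases before to 50 bases after a start lay inside the ab21061 peak, and they held 40 such starts. Of these, 9 are shown, by the 250 bases before the start on the strand of the transcript. The first 4 are all those whose promoter held the GFI1 motif AATCANNGC on either strand. The next 4 were picked after their values and motifs were seen, for genes that the results return to and for matches to other blood-factor motifs, and the last holds none of the 10 motifs searched. Capitals mark matches to any of those motifs. The first is SLC1A3, chr5:36606704-36606953, plus strand. AHCYL2 is chr7:129368130-129368379, plus strand, RASSF3-DT is chr12:64609467-64609716, minus strand, and LOC124901427 is chr6:149852164-149852413, plus strand. DOCK8 is chr9:272796-273045, plus strand, ELF1 is chr13:40982900-40983149, minus strand, AIM2 is chr1:159076767-159077016, minus strand, and RUNX1-AS1 is chr21:34836063-34836312, plus strand. GFI1B is chr9:132978444-132978693, plus strand.
SLC1A3: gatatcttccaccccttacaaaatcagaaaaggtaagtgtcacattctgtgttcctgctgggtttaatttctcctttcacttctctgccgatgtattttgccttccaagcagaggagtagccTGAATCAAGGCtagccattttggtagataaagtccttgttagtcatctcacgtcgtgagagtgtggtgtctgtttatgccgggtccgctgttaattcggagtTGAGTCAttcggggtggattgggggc
AHCYL2: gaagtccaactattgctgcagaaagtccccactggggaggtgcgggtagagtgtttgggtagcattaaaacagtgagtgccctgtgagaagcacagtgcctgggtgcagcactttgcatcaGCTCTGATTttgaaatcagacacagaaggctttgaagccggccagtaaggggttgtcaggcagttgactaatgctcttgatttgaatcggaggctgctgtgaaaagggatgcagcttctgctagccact
RASSF3-DT: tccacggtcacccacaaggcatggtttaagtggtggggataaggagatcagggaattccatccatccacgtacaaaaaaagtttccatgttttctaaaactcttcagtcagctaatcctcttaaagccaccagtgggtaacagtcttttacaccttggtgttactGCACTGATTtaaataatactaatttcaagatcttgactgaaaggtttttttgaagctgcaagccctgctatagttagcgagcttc
LOC124901427: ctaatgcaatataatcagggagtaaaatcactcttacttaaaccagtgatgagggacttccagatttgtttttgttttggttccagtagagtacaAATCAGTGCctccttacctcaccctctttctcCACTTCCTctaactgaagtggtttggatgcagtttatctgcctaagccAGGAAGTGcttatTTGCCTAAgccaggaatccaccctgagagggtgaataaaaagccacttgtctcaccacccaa
DOCK8: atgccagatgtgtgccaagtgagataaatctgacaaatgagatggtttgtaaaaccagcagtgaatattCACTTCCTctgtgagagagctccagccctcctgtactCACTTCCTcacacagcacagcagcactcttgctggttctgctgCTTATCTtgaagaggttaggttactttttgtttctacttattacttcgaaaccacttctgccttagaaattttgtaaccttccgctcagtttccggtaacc
ELF1: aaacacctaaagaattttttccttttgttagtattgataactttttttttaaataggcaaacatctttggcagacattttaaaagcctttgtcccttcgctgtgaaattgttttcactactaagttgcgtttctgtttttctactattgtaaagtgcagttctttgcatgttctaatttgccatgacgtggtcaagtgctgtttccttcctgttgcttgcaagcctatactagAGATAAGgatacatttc
AIM2: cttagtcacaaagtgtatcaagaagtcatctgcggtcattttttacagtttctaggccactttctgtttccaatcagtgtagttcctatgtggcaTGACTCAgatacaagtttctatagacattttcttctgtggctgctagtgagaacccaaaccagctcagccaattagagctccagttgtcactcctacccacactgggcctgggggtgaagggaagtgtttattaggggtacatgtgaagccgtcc
RUNX1-AS1: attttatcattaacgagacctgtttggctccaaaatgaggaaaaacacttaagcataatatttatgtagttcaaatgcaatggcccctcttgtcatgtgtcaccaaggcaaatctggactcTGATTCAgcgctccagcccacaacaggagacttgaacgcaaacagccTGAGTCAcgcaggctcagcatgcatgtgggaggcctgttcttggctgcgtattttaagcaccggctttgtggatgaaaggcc
GFI1B: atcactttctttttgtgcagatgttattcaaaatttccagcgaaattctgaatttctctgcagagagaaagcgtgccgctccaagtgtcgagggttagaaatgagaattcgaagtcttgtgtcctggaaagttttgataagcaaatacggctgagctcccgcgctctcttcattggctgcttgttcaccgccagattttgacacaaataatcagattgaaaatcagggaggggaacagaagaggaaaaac

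In the SLC1A3 stretch the GFI1 match AATCAAGGC began 126 bases before the start and overlapped an AP-1 match, TGAATCA, that began 128 bases before it. The second AP-1 match of this stretch, TGAGTCA, lay 26 bases before the start. The GFI1 matches of AHCYL2 (GCTCTGATT, 129 bases before the start) and RASSF3-DT (GCACTGATT, 85 bases before the start) were on the opposite strand. LOC124901427 held the GFI1 match AATCAGTGC, a match to the ETS motif with a PU.1 flank on each strand, and a C/EBP match. The DOCK8 stretch held a pair of ETS matches with the PU.1 flank, CACTTCCT, 181 and 144 bases before the start, and a GATA match, CTTATCT, 101 bases before it. ELF1 held the GATA match AGATAAG 17 bases before its inner start, AIM2 the AP-1 match TGACTCA 155 bases before, and RUNX1-AS1 the AP-1 matches TGATTCA and TGAGTCA.

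The regions around these starts differed widely in score. The peak score is the value that MACS gave in the authors' lists, a log-transformed p-value that grows as p falls, and it ranks peaks within a list. The SLC1A3 region, in the gene of a glial glutamate transporter, scored 754.63 with ab21061 and 312.48 with sc8558. The AIM2 region, in the gene of a cytosolic DNA sensor, scored 520.8 and 325.62, and the DOCK8 region, in the gene of an activator of CDC42, scored 341.43 and 266.44. The RUNX1-AS1 region, inside the gene of the blood transcription factor RUNX1, scored 259.55 and 268.12. The region at the inner ELF1 start scored 148.75 and 183.79, that of AHCYL2 118.58 and 109.02, that of RASSF3-DT 127.97 and 100.56, that of GFI1B 81.53 and 96.32, and that of LOC124901427 65.54 and 54.48. Among these 9 regions, then, the scores were highest at SLC1A3 and AIM2 with both antibodies and lowest at LOC124901427.

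Across the 1394 regions, scores were spread widely and ranked alike in both lists. The median ab21061 score was 111 (106 to 117), with quartiles of 75.9 and 181 and a range of 50.05 to 3100.0. The median score of the overlapping sc8558 peaks was 106 (103 to 112), with quartiles of 74.2 and 181 and a range of 50.15 to 3100.0. Both scores reached 100 in 599 regions (43.0%, 40.4 to 45.6), both stayed below 100 in 440, both passed 500 in 43, and both passed 1000 in 10. Spearman's rank correlation between the scores over these regions was 0.720, and it was 0.681 between the widths; overlap was needed for a region to be counted, and a few overlapping peaks were shared. The ranks among these regions lay within 2-fold of each other in 1186 (85.1%), though unrelated ranks would often do so too. In all, 78 regions were in the top 100 of both.

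The paired peaks sat close together. The overlap covered a median of 88.3% of the ab21061 peak, with quartiles of 77.0 and 97.4%, and the midpoints lay a median of 67.0 bp apart. In 927 regions (66.5%) the midpoints were at most 100 bp apart, and in 23 they were more than 500 bp apart. The median width was 848 bp (826 to 865) in the ab21061 list and 802 bp (790 to 820) for the sc8558 peaks. The smallest overlaps, 18 bp in ANKRD44, 38 bp in FYB1 and 41 bp in TNFAIP8, were between neighbouring peaks with midpoints 557, 899 and 1979 bp apart. In all, 15 regions shared their sc8558 peak with another region, so the 1394 regions answer to 1386 sc8558 peaks.

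Whether a deep ab21061 peak was also found with sc8558 went with its score. Of 2214 deep ab21061 peaks, 1394 (63.0%, 60.9 to 65.0) were shared, against 63.7% of all 7687 ab21061 peaks. Seen from the other antibody, 1400 of 2170 deep sc8558 peaks (64.5%, 62.5 to 66.5) were shared, against 65.0% of all 7562. With ab21061 the deep share lay below that at gene ends, where 422 of 591 ab21061 peaks within 1 kb of an end were shared (71.4%, 67.6 to 75). Among intergenic peaks beyond 100 kb from any end 1101 of 1871 were shared (58.8%, 56.6 to 61.1). With sc8558 the classes were not set apart, at 64.5% deep inside genes, 67.9% (64.1 to 71.6) at gene ends and 62.2% (59.9 to 64.5) beyond 100 kb, with overlapping intervals. The deep share rose from 29.5% of 495 peaks with scores of 50 to 60, through 66.2% of 311 with scores of 80 to 100 and 97.6% of 169 with scores of 150 to 200, and reached 297 of 297 at scores of 200 or more. With sc8558 the same classes gave 31.9% of 540, 68.7% of 300, 96.4% of 169, and 287 of 288. The 820 deep ab21061 peaks without an sc8558 overlap had a median score of 62.8.

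Deep regions were narrower than shared peaks at gene ends and wider than those far from any gene. The median ab21061 width was 848 bp (826 to 865) deep inside genes, 980.5 bp (949 to 1017) at gene ends, 897 bp (877 to 914) between 1 and 10 kb from an end, 871 bp (855 to 890) in intergenic stretches 10 to 100 kb from an end, and 714 bp (696 to 727) beyond 100 kb. The sc8558 widths stood in the same order, at 802, 960, 854, 830 and 688 bp. The median ab21061 scores of the same classes were 111, 114, 110.2, 108 and 101, and the interval of the deep class, 106 to 117, overlapped those of the gene ends (103 to 128), of the 1 to 10 kb class (104 to 116) and of the 10 to 100 kb class (101 to 113).

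The regions that stood high in both lists were found in genes with varied functions. They were picked by the worse of their ranks, so their similar order with both antibodies is partly built in and is not read as agreement. That rule left out the region in IGSF3, at rank 7 with sc8558 but 21 with ab21061. It also left out the region in OR6N1, at rank 7 with ab21061 but 14 with sc8558. The first by the rule was in PCBD2, whose product recycles a pterin cofactor, at chr5:134923100-134928744, with 3100.0 in both lists. Shared intergenic peaks beyond 100 kb from any end reach the same 3100.0 with both antibodies. This value may be a ceiling of the score, so its equality is not read as agreement. The second was in WWP2, which encodes a ubiquitin ligase, at chr16:69795687-69799505, with scores of 2365.66 with ab21061 and 2364.68 with sc8558. ERC1, a scaffold of vesicle release, followed at chr12:1084713-1086048 with 1787.22 and 1481.33. LOC102724250 had 1767.09 and 1516.22 at chr1:628769-635178, SYTL3, a RAB27-binding synaptotagmin-like protein, 1368.6 and 1403.07, and NFAM1, an ITAM-bearing receptor of immune cells, 1199.35 and 1223.29. The other four of the first 10 by the worse of the ranks were in MYBPC1 (1128.43 and 1072.14), SEL1L3 (1578.65 and 1029.91), ADGRV1 (1119.68 and 984.82) and SCRG1 (1102.66 and 1061.87). Of these 10, MYBPC1, ADGRV1 and SCRG1 are best known from muscle, inner ear and retina, and cartilage.

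The regions in PCBD2 and LOC102724250 lie over nuclear copies of mitochondrial genes. The PCBD2 region overlaps the pseudogenes MTCYBP18, MTND6P4, MTND5P11, MTND4P12, MTND4LP30 and MTND3P25. The LOC102724250 region overlaps MTND1P23, MTND2P28, MTCO1P12, MTCO2P12, MTATP8P1, MTATP6P1 and MTCO3P12. Such copies share reads with near-identical sequence elsewhere, so the scores of these regions are uncertain. They are also the widest of the first 10, at 5645 and 6410 bp. The LOC102724250 region holds the only miRNA gene that any deep shared region overlaps, MIR12136, whose mature form (RefSeq, chr1:632668-632685, minus strand) is shown with its seed, bases 2 to 8, in capitals.
hsa-miR-12136: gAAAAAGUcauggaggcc

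Some regions scored very differently with the 2 antibodies. Ranked among the 1394, the region in SGMS1, a sphingomyelin synthase gene, stood 124th with ab21061 (343.25) and 802nd with sc8558 (96.99). PIK3R1, the regulatory subunit of PI3-kinase, had 274.55 and 75.29, SLC1A3 754.63 and 312.48, EMILIN2 302.88 and 100.0, and KLHL3 288.61 and 95.82. In the other direction, FYB1, an adaptor of T cell and myeloid signalling, had 50.47 with ab21061 and 301.78 with sc8558, and ETV6, an ETS-family repressor, had 52.99 and 214.41. PPFIBP1 had 79.62 and 266.53, C2CD2 100.65 and 298.95, and ANXA8 95.64 and 263.15. At FYB1 the overlap was only 8.72% of the ab21061 peak and at PPFIBP1 24.6%, so the paired peaks covered partly different stretches. In 4 of these 5 genes the same sc8558 peak was also paired with a higher ab21061 peak next to it, which scored 381.78 at FYB1, 181.3 at ETV6, 175.25 at PPFIBP1 and 244.04 at C2CD2. ANXA8 was the exception.

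Most regions lay far from any gene end. The median distance was 41.4 kb, with quartiles of 21.4 and 77.0 kb, and 245 regions (17.6%) lay beyond 100 kb. The farthest was in PDE4D, a cyclic AMP phosphodiesterase gene, at 594 kb, with scores of 80.53 and 56.64. Also among the 5 farthest were another region of PDE4D at 534 kb (131.55 and 88.08), MAGI2 at 494 kb (118.21 and 76.77) and ASIC2 at 489 kb (141.56 and 111.75). All 4 ranked nearer the top among the 1394 with ab21061 than with sc8558. Just inside the 10 kb limit lay ASCC2 at 10.0 kb (120.43 and 96.37), NBN at 10.1 kb (83.75 and 97.07) and HEATR5A at 10.1 kb (101.41 and 97.86). Just outside it lay shared peaks in PPARD at 9.98 kb (55.99 and 77.62), EPHA10 at 9.95 kb (68.74 and 98.43) and NFILZ at 9.90 kb (157.07 and 182.23).

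Of the 11014 protein-coding genes with a span over 20 kb, which a gene needs to hold such a region, 1015 (9.22%) held at least 1. Hosts with a region whose scores both reached 100 numbered 496 (4.50%). A single region was found in 768 hosts, 2 in 162, 3 in 49, and 4 or more in 36, and 24 regions lay in 2 overlapping host genes at once. The interior of a gene, its span less 10 kb at each end, had a median length of 128 kb in hosts and 33.4 kb in the other genes. Where other genes have ends inside a span, the stretches within 10 kb of them could hold no region. These stretches were kept in the interior length. The share of hosts rose with interior length, 0.552% of 2174 genes up to 10 kb, 3.03% of 2571 between 10 and 30 kb, 6.87% of 2913 between 30 and 80 kb, 18.6% of 2129 between 80 and 200 kb and 27.4% of 936 between 200 and 500 kb. It was 24.7% (19.9 to 30.1) of the 291 genes with an interior over 500 kb. Per Mb of interior the counts were 1.15, 1.70, 1.51, 2.02 and 1.60 in the first 5 classes, against 1.42 over all genes, and 0.462 in the longest genes, where 113 regions fell in 245 Mb.

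**Figure D1:**
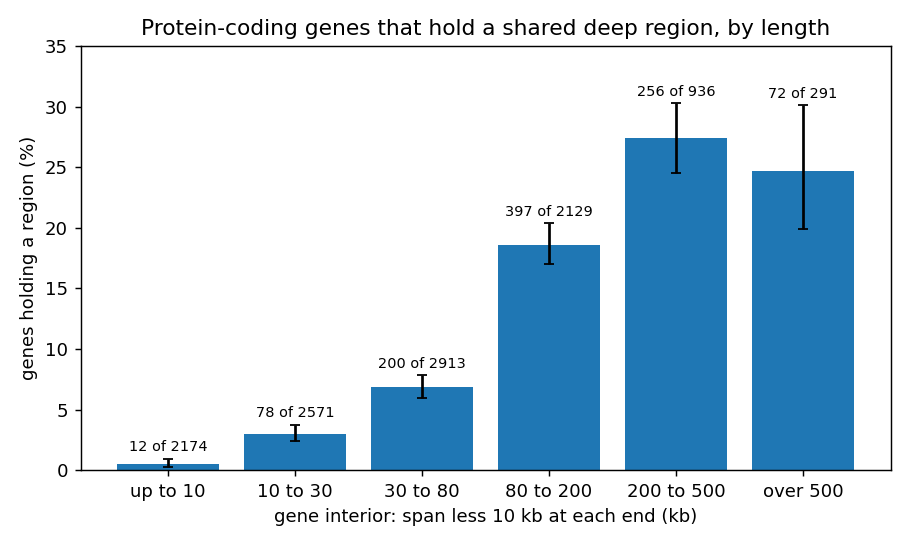
Bars give the percent of protein-coding genes in each class of interior length (kb, span less 10 kb at each end) that hold at least 1 shared deep region, with exact 95% intervals and the number of genes above. The share climbs from 0.552% in the shortest class to 27.4% between 200 and 500 kb and is 24.7% above that.

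Within their host genes the regions were spread over the whole length, with the fewest at the 3′ end. The direction of transcription was known for 868 hosts, which placed 1219 regions. With each interior cut into 5 equal stretches from 5′ to 3′, the shares were 21.2% (18.9 to 23.6), 23.4% (21.0 to 25.9), 19.1%, 19.0% and 17.3% (15.2 to 19.6). The interval of the last stretch overlapped that of the first and lay below that of the second. The 693 placements of deep ab21061 peaks without an sc8558 overlap gave 21.2, 22.4, 19.3, 17.6 and 19.5%. The median distance from the gene start was 73.4 kb for the shared regions and 77.9 kb for the peaks that were not shared.

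A small number of genes held several regions each. MAML2, a coactivator of Notch transcription, held 10, the most of any gene, all within 102 kb of its 347 kb interior on chromosome 11. Their ab21061 scores were 121.31, 80.54, 142.49, 1104.04, 147.12, 340.74, 84.04, 131.81, 247.38 and 163.9, and their sc8558 scores were 99.22, 68.06, 88.36, 865.84, 219.23, 194.97, 67.83, 64.26, 286.46 and 260.37, in order of position. With both antibodies the fourth region, chr11:96211449-96213654, stood far above the other nine. ELF1, an ETS-family transcription factor of blood cells, held 8 regions in 55.3 kb on chromosome 13, with ab21061 scores from 51.35 to 502.01 and sc8558 scores from 96.63 to 341.51. The highest in both lists was at chr13:41016395-41018263, and 2 neighbouring ELF1 regions shared 1 sc8558 peak (183.79).

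FNDC3B, a fibronectin type III protein linked to fat cell differentiation, held 7 regions in 78.7 kb, with the highest at 853.3 with ab21061 and 542.81 with sc8558. ARHGAP26, a GTPase-activating protein, held 7 spread over 329 kb, of which 1, at chr5:143002272-143003659, scored 971.93 and 798.27 while the other six stayed at or below 105.82 and 98.46. ITPR2, an inositol trisphosphate receptor that releases calcium from the endoplasmic reticulum, held 7 over 371 kb with no such peak, from 66.68 to 131.94 with ab21061 and from 83.38 to 159.93 with sc8558. The 7 regions of ITPR2 were thus alike in score, whereas those of ARHGAP26 were not. TNFAIP8, an inhibitor of cell death, held 6, of which 3 shared 1 sc8558 peak (187.16). FLT1, a VEGF receptor, held 6, and the highest, at chr13:28467745-28468889, had 740.87 and 764.25. IGF1R, the receptor of insulin-like growth factor 1, held 6, up to 619.78 and 641.7. ATP8B4, a putative phospholipid flippase, held 6, up to 286.36 and 282.1, and JMJD1C, a protein of the histone demethylase family, held 6, up to 261.08 with ab21061 and 322.79 with sc8558.

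**Figure D2:**
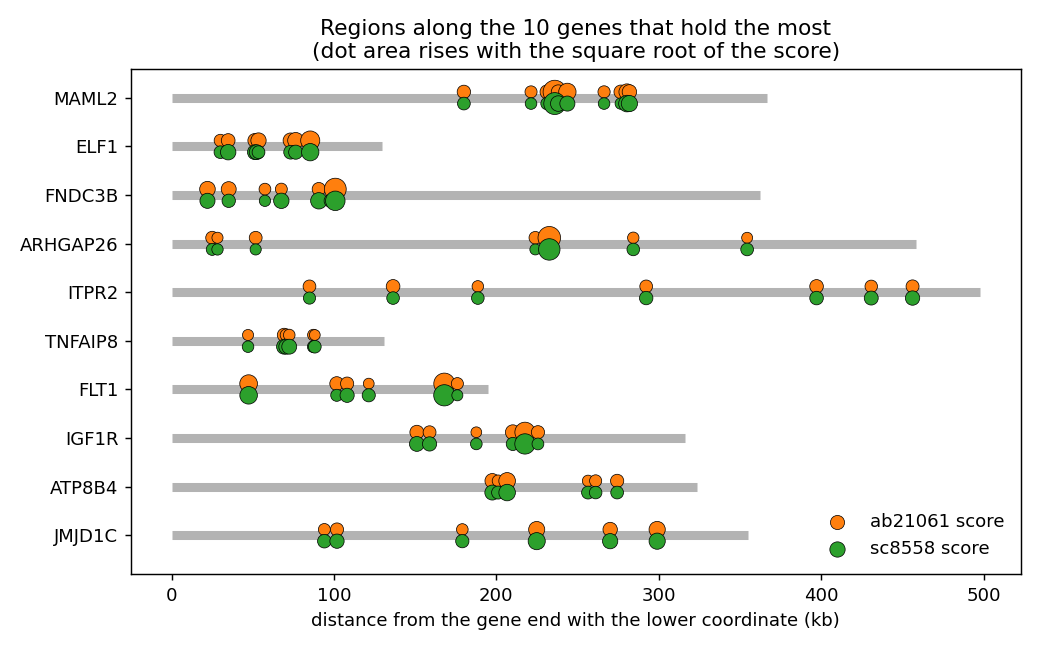
The 10 genes with the most shared deep regions, each drawn as a grey bar in kb from its end with the lower coordinate; orange dots give the ab21061 and green dots the sc8558 score of each region, with dot area rising with the square root of the score. The 10 MAML2 regions sit within 102 kb, while the 7 ITPR2 regions are spread over 371 kb.

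Relative to the length of its interior, MAP3K14, the kinase NIK of the noncanonical NF-κB pathway, was the densest of the genes with at least 3 regions, at 88.5 per Mb. Its 3 regions lay within 4.58 kb and scored from 81.99 to 340.45 with ab21061 and from 76.18 to 391.4 with sc8558. ELF1 had 73.1 per Mb, SLA, an adaptor that dampens antigen receptor signalling, 65.4, TNFAIP8 54.1, and RAB27A, a GTPase of granule secretion, 41.6. Over all genes with 2 or more regions, 403 gaps between neighbouring midpoints had a median of 23.1 kb, with quartiles of 7.16 and 63.6 kb, and 137 gaps (34.0%) were at most 10 kb. The 36 genes with 4 or more regions held 179 of them.

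Gene lists were read against gene length, because long genes hold more regions. For each list, the number of hosts among its genes over 20 kb was set beside the number that the same genes would have at the host share of all genes in their length class. All 11 lists had more hosts than length gave, and 5 had at least 1.5 times as many, but 5 lists had fewer hosts than length gave at scores of 100 or more, at a limit of 25 kb or at an overlap of 50% (kinases and phosphatases, adhesion, phagocyte, lymphoid, and long neuronal and muscle genes). The lists were chosen with earlier results of these data known, they overlap by a few genes, and they hold 106 of the 1015 hosts, so 909 hosts belong to none.

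Transcription factors of blood cells often held a region. Of 43 list members over 20 kb, 21 held a region (48.8%, 33.3 to 64.5), where length gave 6.56, and their 38 regions had median scores of 136 with ab21061 and 157 with sc8558, against 111 and 106 over all deep shared regions. RUNX1, the core-binding factor subunit needed for definitive blood formation, had its highest region at chr21:34884776-34886745, with 726.25 and 672.47. BACH2, a repressor of lymphocyte differentiation, had 371.65 and 515.56 at its highest of 3 regions, ELF1 502.01 and 341.51, and RUNX2 293.2 and 300.72. GFI1B, the paralog of GFI1, held 2 regions, and the higher scored 110.43 and 188.65. RARA, the retinoic acid receptor gene that is fused to PML in these cells, held 1 region at 85.8 and 70.08. GFI1B and RARA are named after their values were seen. The interval of the host share of this list lay above the 15.3% that length gave.

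Among genes of corepressors and of chromatin regulators at large, 9 of 43 held a region, where length gave 6.58. KDM1A and RCOR1, the genes of LSD1 and CoREST, were not among the hosts. The class IIa deacetylase HDAC4 had the highest, at chr2:239264250-239266151, with 581.59 and 606.41. JMJD1C had 261.08 and 259.67, the DNA demethylase TET2 194.7 and 209.54, and the histone methyltransferase KMT2C 147.15 and 145.54. Cytokine and growth factor receptors had 6 hosts of 31, where length gave 2.73. By the lower score, IGF1R (619.78 and 641.7) stood first, followed by FLT3, a receptor of early blood progenitors (427.01 and 278.49). TGFBR2 (214.42 and 300.92) and CSF1R, the receptor of macrophage colony-stimulating factor (141.68 and 138.39), came next.

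The Notch pathway had 5 hosts of 18, where length gave 2.09, with 18 regions, of which 10 were in MAML2 and 5 in RBPJ, the DNA-binding factor of the pathway. The highest RBPJ region scored 99.17 and 101.65, the ADAM10 region, in the gene of a protease that cleaves Notch receptors, 336.82 and 177.96, and the region in the receptor NOTCH2 68.77 and 106.24. Calcium and phosphoinositide signalling had 11 hosts of 43, where length gave 7.38. Ranked by the lower of the 2 scores, PDE4D (279.63 and 323.04) and the plasma membrane calcium pump ATP2B4 (234.01 and 270.95) came first. PDE4B (220.65 and 240.33) and the calcium sensor STIM2 (273.45 and 205.03) followed. STIM1 (197.88 and 343.11) scored above all of these with sc8558. Kinases and phosphatases of immune signalling had 8 of 44, where length gave 6.14. By the lower score, PRKCE (131.94 and 176.32) and PTPRC, the CD45 phosphatase (176.42 and 108.59), stood first. PIK3R1 scored higher with ab21061 (274.55) but only 75.29 with sc8558. PTPRJ had 85.82 and 105.12. The 10 regions in these 8 genes had median scores of 83.6 and 73.9, lower than the deep shared regions at large.

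Phagocyte effector and innate sensing genes, many of them short, had 3 hosts of 22, where length gave 1.15. They were CYBB, the catalytic subunit of the phagocyte NADPH oxidase (228.25 and 297.78), TLR6 (72.16 and 84.34) and IRAK3 (69.1 and 77.54). Adhesion genes had 3 of 28, where length gave 2.28, with ITGA6 (237.92 and 209.04), ADAM10 and CD86 (87.67 and 155.71). Lymphoid genes had 4 of 25, where length gave 3.17, with FYB1 (381.78 and 301.78), SATB1 (96.26 and 107.46), PAX5 (69.8 and 63.86) and SKAP1 (132.66 and 55.97). In each of these 3 lists the count differed from that given by length by fewer than 2 genes.

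Very long genes of neurons and muscle held few regions for their size. Of 43 such genes 14 were hosts, where length gave 10.7, but they held 16 regions where length gave 26.1. That is 0.294 per Mb of interior, against 1.42 over all genes and 0.462 over all genes with an interior beyond 500 kb. The highest were in ERBB4 (324.57 and 212.58), PCDH15 (163.33 and 299.77), AGBL4 (227.47 and 126.52) and NEGR1 (100.65 and 97.56).

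**Figure D3:**
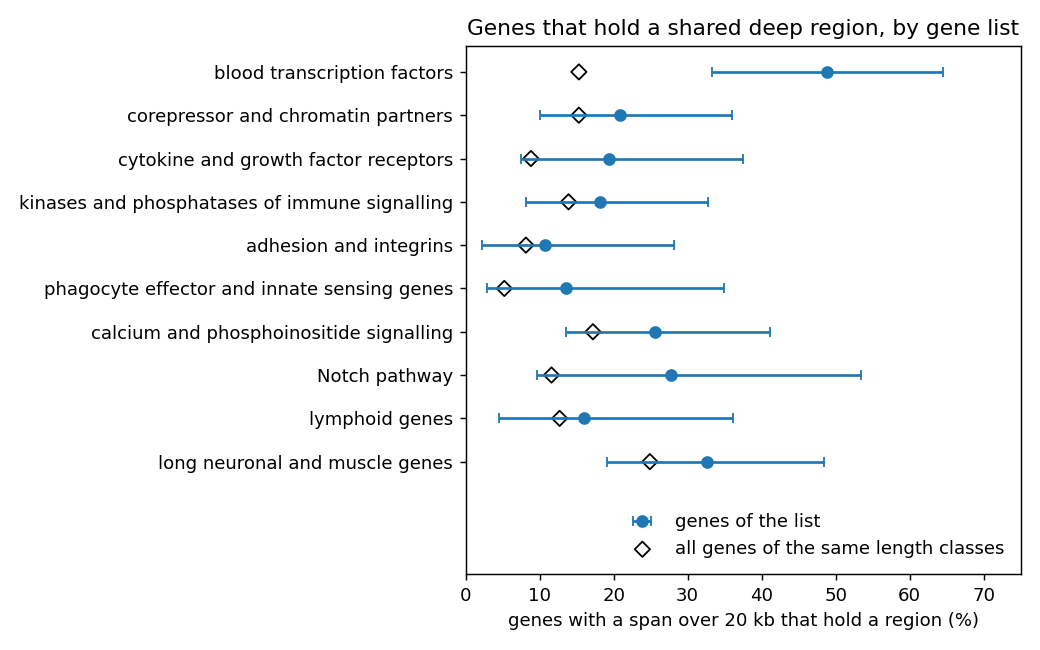
For 10 gene lists, blue dots give the percent of the genes over 20 kb that hold a shared deep region, with exact 95% intervals, and open diamonds give the percent given by all genes of the same length classes. The interval lies to the right of the diamond for blood transcription factors (48.8% and 15.3%) and includes the diamond for the other nine lists.

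Transcript starts inside gene bodies were met more often than their share of the sequence. Apart from chromosome 8, whose starts were not used, RefSeq lists 2663 protein-coding starts in 1632 genes that lie deep in gene interiors. The stretches within 1 kb of them make up 0.481% of the 959.6 Mb of interior. Both that length and the regions counted below include chromosome 8, whose 55 regions could not be counted as near a start. Of the 1394 deep shared regions, 38 (2.73%, 1.94 to 3.72) had their midpoint within 1 kb of such a start, which is 5.67-fold (4.03 to 7.74) the share of sequence. Of the 820 deep ab21061 peaks that were not shared, 17 (2.07%, 1.21 to 3.30) did, 4.31-fold, and the intervals of the shared and not-shared peaks overlapped. For 2107 starts of long noncoding RNAs inside these interiors the deep shared regions gave 24 (1.72%), 4.18-fold (2.68 to 6.19). Nearly all deep shared regions thus lay away from the coding starts used here. Regions near a coding start had median scores of 99.4 with ab21061 and 107 with sc8558, against 111 and 106 for the rest.

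Counted from the starts, 27 of 2663 deep coding promoters (1.01%, 0.669 to 1.47) lay wholly inside a shared region. At gene ends, 135 of 13843 coding promoters (0.975%, 0.818 to 1.15) lay wholly inside a shared peak, so the 2 shares were within each other's intervals. Under the 10 kb limit each deep coding promoter inside a region must belong to a gene that hosts it. The 27 promoters lay in 23 genes and 24 regions. Beside those shown above they include a pair in JMJD1C, and others in CREM, a cyclic AMP-responsive factor (172.27 and 115.88), SMARCA2, a chromatin remodelling ATPase (177.14 and 239.62), ACSL1 (85.81 and 97.06), IL21R (79.36 and 167.89), PRDM1, the repressor BLIMP-1 (57.75 and 65.14), and ARHGAP25 (66.35 and 94.34). Of the long noncoding RNA promoters 13 of 2107 (0.617%, 0.329 to 1.05) were covered. They include EGOT inside ITPR1 (121.61 and 62.13) and ADD3-AS1 inside ADD3 (51.98 and 105.36). These examples beyond the sequences shown were chosen after their values were seen.

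The motif shares of these 40 promoters rest on few matches and have wide intervals. Motifs were searched over the 300 bases on both strands, and the shares are given for the 40 covered promoters, then for all 4770 deep ones and for all 35116 promoters of the RefSeq table. The GFI1 motif AATCANNGC was in 4 of 40 (10.0%, 2.79 to 23.7), against 3.29% and 3.57%. The ETS motif with a PU.1 flank, AGGAAGTG, was in 6 (15.0%, 5.71 to 29.8), against 4.11% and 3.65%, and this was the only motif whose interval lay above both. The AP-1 motif TGANTCA was in 7 (17.5%, 7.34 to 32.8), against 11.2% and 7.71%, the C/EBP motif TTGCNNAA in 8 (20%), against 13.0% and 10.5%, and the GATA motif AGATAAG in 4 (10.0%, 2.79 to 23.7), against 3.92% and 2.68%. The RUNX motif TGTGGTT was in 3 (7.50%), against 5.53% and 4.27%, and the nuclear receptor half-site AGGTCA in 8 (20%), against 15.5% and 13.8%. The MYB motif AACNGTT was in 2 (5.00%), against 5.01% and 3.51%, the CTCF motif CNAGGGGGC in 2 (5.00%), against 1.99% and 3.50%, and the E-box CAGCTG in 6 (15.0%), against 19.8% and 17.9%. A match is a run of letters and not a measured site, and some of these promoters overlap one another, as the pairs in CREM and AHCYL2 do.

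Deep shared regions overlapped annotated noncoding genes less often than shared peaks elsewhere. Such an overlap was found for 152 of 1394 (10.9%, 9.32 to 12.7), against 23.5% (19.5 to 27.8) at gene ends, 15.6% (13.4 to 18.0) at 1 to 10 kb, 32.8% (29.8 to 35.8) in intergenic stretches 10 to 100 kb from an end and 17.0% (14.8 to 19.3) beyond 100 kb. Long noncoding RNA genes made up most, with 140 regions (10.0%, 8.51 to 11.7), and pseudogenes 12. The share of sequence that noncoding genes cover in each class was not measured. Whether the differences between classes only follow where noncoding genes lie was not tested. The U4atac snRNA gene RNU4ATAC, which lies inside CLASP1, was overlapped by a region with scores of 80.85 and 59.86, and RN7SL1, the RNA of the signal recognition particle, by one with 161.48 and 146.02. Small RNA genes can have near-identical copies elsewhere in the genome, as RN7SL1 does, so reads may be shared with such copies.

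Deep shared regions were not evenly spread over chromosomes. Per Mb of gene interior there were most on chromosome 13 (2.59, with 73 placements in host genes), which carries ELF1, FLT1 and FLT3, then on chromosome 15 (2.12), with IGF1R, ATP8B4 and RAB27A, and on chromosome 12 (2.05), with ITPR2 and ERC1. The fewest, apart from chromosome Y with 0, were on chromosome X (0.297, with 12 placements), chromosome 22 (0.759) and chromosome 18 (0.763). These densities have no intervals, and peaks that were not shared were not counted by chromosome. The cause of the differences was not tested.

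**Figure D4:**
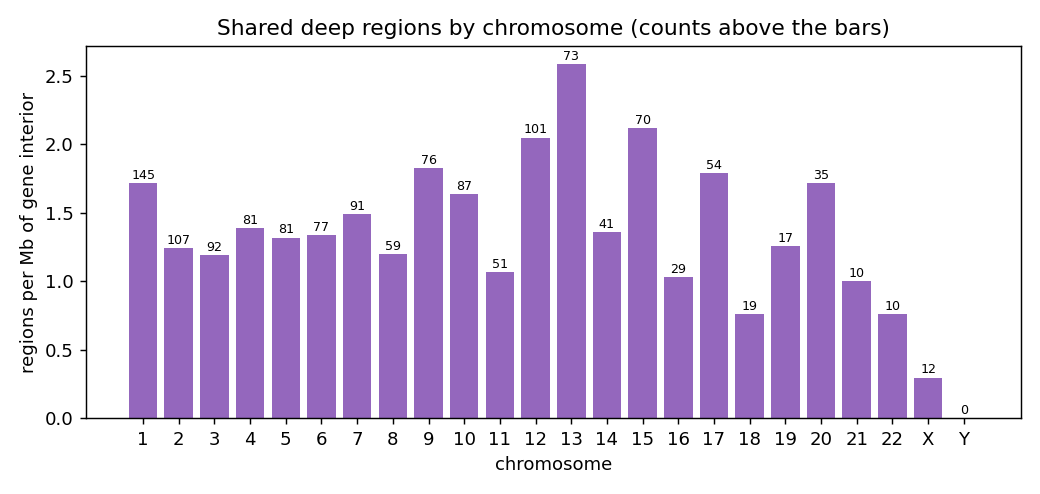
Bars give the number of shared deep regions per Mb of protein-coding gene interior on each chromosome, and the numbers above them the placements in host genes. Chromosome 13 is highest at 2.59 per Mb, and chromosome X has 0.297.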

How the data were processed

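The submitters' processing notes name hg38, MACS 1.4.2 and Bowtie2 2.2.9. Options, read filters and the control were not given in the sources used here. Each deposited peak list, 1 per antibody and not pooled, gives a score per peak as the authors' caller wrote it, from 50.01 to 3100.0. Scores were used to rank, describe and filter peaks within a list. Depth is unknown, and with 1 library per antibody no test between antibodies or p-value was computed.

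Gene spans, types, transcript starts and sequences came from RefSeq (GRCh38.p14). The gene table has no exons, so introns were not separated from exons. Strand came from the promoter table and was missing for 147 hosts. Starts on chromosome 8 were not used here. The motif search planned around peak midpoints was not run, since no genome sequence was used; the search in RefSeq promoters (300 bases, 10 motifs) and the analysis of deep starts replaced it and were chosen after seeing the data. ORAI1, of the calcium list, was not matched in the gene table. A region and the values of a gene list that these rules name are not reported here.

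Members and lists were chosen with earlier results of these data known. The text names, by rule, the 10 regions with the best worse rank, the 10 genes with the most regions, the 5 regions farthest from an end, up to 4 hosts per list by the higher of their lower scores, the 3 regions nearest to each side of the 10 kb limit, the 3 smallest overlaps, the 5 largest rank ratios each way, and the 5 densest genes with 3 or more regions. Counting was tested on simulated data with planted peaks. Scripts ran in Python 3.11.15 with scipy 1.17.1, pandas 2.3.3, numpy 2.4.6 and, for plots, matplotlib 3.10.9. Alternatives were scores of 100 or more, limits of 5 and 25 kb, a 50% overlap of both peaks, ends of all gene types, and sc8558 peaks as members.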

Additional observations from a re-analysis of the deposited data

How the results depend on the processing

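With 1 library per antibody and no depth, none of these values has a replicate check. No paired analysis was possible because each antibody has 1 library. Of the alternative values of the main results, 34 stayed within the spread or the 1.5 times allowed for counts and 11 moved. At scores of 100 or more in both lists, there were 599 regions and 496 host genes. Of the deep ab21061 peaks that reached 100, 69.2% overlapped an sc8558 peak that also reached 100. Against sc8558 peaks of any score, 81.5% of deep ab21061 peaks with scores of 100 to 150 were shared. With both scores at 100 or more, the median scores were 195 with ab21061 and 192 with sc8558, and the median width was 996 bp. In that setting 8 of the 11 lists had at least 1.5 times the hosts that length gives. An overlap of at least 50% of both peaks left 60.3% shared, a limit of 25 kb left 660 host genes, and sc8558 peaks as members had a median width of 800 bp. The fold at deep coding starts was 8.85 with a window of 500 bp and 4.82 with 2 kb, alternatives chosen after seeing the data. Several lists fell below the number that length gives. At scores of 100 or more these were the kinases and phosphatases (2 hosts, 3.07 by length), the lymphoid genes (1 and 1.59) and the long neuronal and muscle genes (3 and 5.52). At 25 kb they were the adhesion genes (1 and 1.38) and the phagocyte genes (0 and 0.449), and at the 50% overlap the lymphoid genes (3 and 3.08). The cause was not tested. The planned 75 bp motif window was not run.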

Other observations

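Families defined by the start of the gene symbol, chosen after values were seen, differed in how often they held a deep shared region. Of 11 DOCK genes over 20 kb, which encode exchange factors for RAC and CDC42, 5 were hosts, where length gave 2.66. The TBC1D genes, GTPase-activating proteins for RAB proteins, had 6 hosts of 28, where length gave 3.34. Genes with the RAB prefix, which takes in more than the RAB proteins (the host RAB11FIP1, for instance), had 6 of 53, where length gave 3.66. The highest ab21061 score of a TBC1D region was in TBC1D1, with 410.62 (282.33 with sc8558), and the highest sc8558 score was in TBC1D19, with 358.29 (270.32 with ab21061). Fewer hosts than length gave were found among the protocadherin-named genes, with 1 of 46 (PCDH15) against 7.32, among the ADAM-named genes, with 1 of 32 (ADAM10) against 4.59, and among the ZNF zinc-finger genes, with 8 of 314 against 15.1. The number given by length takes no account of ends of other genes within a span, near which no region can be counted. It is therefore too high for genes that overlap or crowd together, and low counts in such families are not read as a lack of regions. How far this holds for each family was not measured. The SLC transporter genes, with 18 of 284, stood below the 22.1 that length gave. In all, 20 families were counted, and some stood close to length. These include the ARHGAP (5 hosts, 4.81 by length), ARHGEF (3 and 2.88), COL (7 and 6.45) and KIF (4 and 3.64) families. No test was made of these counts.

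Genes with a shared peak within 1 kb of an end more often held a deep shared region as well. Of 312 such genes over 20 kb, 51 did (16.3%, 12.4 to 20.9), against 964 of 10702 other genes (9.01%, 8.47 to 9.57). Among genes with an interior of 80 to 200 kb the shares were 33.8% (22.8 to 46.3) of 68 and 18.1% (16.5 to 19.9) of 2061, and among those of 200 to 500 kb 55.6% (30.8 to 78.5) of 18 and 26.8% (24.0 to 29.8) of 918. Below 30 kb of interior the counts were too small to read, with 1 host in each of the 2 shortest classes of genes with a shared peak at an end.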
